A study of Mus musculus with 27 samples.

Results

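Matrix metalloproteinases and their inhibitors were followed in 3 myeloid populations of the inflamed mouse colon, in wild type (WT) mice and in mice without Mbd2. The 10 genes were Mmp8, Mmp9, Mmp12, Mmp13, Mmp14, Mmp19, Timp1, Timp2, Timp3 and Adamdec1, and they were taken as all probes whose symbol in the deposited intensity table matched one of these names. This gave 17 of the table's 45281 probes, and all 10 of the genes among its 30869 symbols. Monocytes, macrophages and cDC1s, the last labelled as CD11b negative dendritic cells, had been sorted from the colon lamina propria after 2% dextran sodium sulfate (DSS) in the drinking water, which injures the epithelium. All groups used here therefore come from DSS treated animals, and no untreated colon was among them. Monocytes had 5 WT and 5 Mbd2-/- arrays, macrophages had the same numbers, and cDC1s had 2 WT and 3 Mbd2-/- arrays. Mbd2-/- mice lack the gene in every cell, so a difference in a sorted cell need not arise in that cell. Each array held RNA of 1 to 5 mice by the deposited record, where the study's methods give 1 to 10 mice per replicate. The methods describe C57BL/6 mice, matched for age and sex, and co-housed with littermate controls where this was possible. The methods speak of several separate experiments, but the labels do not tie arrays to experiments or to BeadChips, so p-values measure the spread between arrays only.

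Matrix metalloproteinases are zinc dependent proteases that cut extracellular matrix and many signalling proteins. Most are made as inactive precursors, are induced by inflammatory cytokines through factors such as AP-1, and are held in check by the tissue inhibitors of metalloproteinases (TIMPs), which block the active site. In the inflamed gut they are known for matrix breakdown, ulceration and the release of cytokines from their bound forms. Among the genes followed, Mmp8 encodes the neutrophil collagenase, Mmp13 a collagenase, Mmp9 the gelatinase B, Mmp12 the macrophage elastase and Mmp14 a membrane bound protease that activates the Mmp2 precursor. Mmp19 encodes a secreted metalloproteinase. Timp1, Timp2 and Timp3 encode inhibitors, of which Timp3 binds to the matrix, and Adamdec1 encodes a secreted protease of the ADAM family without the usual membrane anchor.

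Mmp13, Mmp12 and Mmp8 lie in one metalloproteinase cluster of chromosome 9, all on the plus strand in GRCm38.p6, at chr9:7272514-7283333, chr9:7344397-7360461 and chr9:7558429-7568486. A RefSeq table for GRCm38.p6 with 300 bases around each annotated start, 250 before it and 50 from it on, held 7 of the 10 genes with 8 windows. It had no window for Mmp9, Mmp19 or Adamdec1. The windows of the 3 clustered genes are shown because Mmp12 and Mmp13 were higher in macrophages than in monocytes while Mmp8 was lower there. Capitals mark matches to TGANTCA, the core that AP-1 binds, which reads the same on both strands. For Mmp12, which has an annotated start at each of 2 places, the window of the downstream one is shown, since the upstream window, chr9:7344147-7344446, held no match.
Mmp13, chr9:7272264-7272563, plus strand: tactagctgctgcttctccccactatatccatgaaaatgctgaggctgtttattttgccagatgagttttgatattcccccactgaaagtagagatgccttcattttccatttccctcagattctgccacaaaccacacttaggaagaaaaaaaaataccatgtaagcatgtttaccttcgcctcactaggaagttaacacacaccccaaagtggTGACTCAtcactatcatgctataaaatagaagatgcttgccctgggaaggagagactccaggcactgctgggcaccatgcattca
Mmp12, chr9:7347124-7347423, plus strand: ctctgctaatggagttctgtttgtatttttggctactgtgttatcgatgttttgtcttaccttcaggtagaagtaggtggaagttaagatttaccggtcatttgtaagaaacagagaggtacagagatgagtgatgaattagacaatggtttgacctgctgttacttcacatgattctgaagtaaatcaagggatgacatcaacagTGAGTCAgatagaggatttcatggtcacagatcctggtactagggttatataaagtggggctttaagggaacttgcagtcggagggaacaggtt
Mmp8, chr9:7558179-7558478, plus strand: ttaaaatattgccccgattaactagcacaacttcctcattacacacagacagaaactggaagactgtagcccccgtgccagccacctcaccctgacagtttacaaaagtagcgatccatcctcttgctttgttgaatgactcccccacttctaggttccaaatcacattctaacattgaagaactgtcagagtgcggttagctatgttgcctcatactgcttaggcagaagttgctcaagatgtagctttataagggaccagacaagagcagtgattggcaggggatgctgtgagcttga
The match began 35 bases before the start in Mmp13 and 44 bases before it in Mmp12. Of the 32851 windows in the table, 7.81% held such a match, and no window of Mmp8, Mmp14, Timp1, Timp2 or Timp3 did. Among the other genes called higher in macrophages than in monocytes, Timp2 thus had no match and Mmp9 had no window. AGGAAG, the core of ETS factor sites, was found on either strand in 35.4% of all windows, with 2 matches in Mmp13, 1 in Mmp8, Mmp14, Timp3 and the upstream Mmp12 window, and 3 in Timp1. TATAAA was found in 13.6% of all windows, and in those of Mmp13, Mmp8 (on the minus strand) and the downstream start of Mmp12. A match of letters is a description and not a binding site.

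Mbd2 binds DNA at methylated CpG pairs, so the CpG pairs of Timp1, the gene called between genotypes below, are shown in capitals.
Timp1, chrX:20869916-20870215, plus strand: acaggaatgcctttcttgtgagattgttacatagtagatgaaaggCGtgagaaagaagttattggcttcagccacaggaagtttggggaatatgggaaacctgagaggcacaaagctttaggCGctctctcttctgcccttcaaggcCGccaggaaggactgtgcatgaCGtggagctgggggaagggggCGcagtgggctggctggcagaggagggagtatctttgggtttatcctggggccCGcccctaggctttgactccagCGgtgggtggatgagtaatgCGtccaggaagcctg
The Timp1 window held 8 CpG pairs, against a median of 7 over all windows. Timp2 and Timp3 had 25 and 24, Mmp14 had 10, and the windows of Mmp8, Mmp12 and Mmp13 had 4 or fewer. Methylation was not measured here.

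The 25 colon arrays had mean raw intensities of 171.5 to 353.1 and 16024 to 18608 detected probes, where detected means a detection p under 0.05. The Mbd2-/- cDC1 arrays were dimmer, at 171.5 to 227.6, than the WT cDC1 arrays, at 264.6 to 291.9. Markers were checked against the labelled cell types. The summed macrophage markers were at 45919.4 to 54400.1 in macrophages, 19624.1 to 24789.1 in monocytes and 2657.4 to 5934.5 in cDC1s. The summed cDC1 markers were at 13158.3 to 14968.8 in cDC1s, 1632.7 to 2265.8 in macrophages and 1111.5 to 1791.4 in monocytes. Of these, Xcr1 and Clec9a were detected on all 5 cDC1 arrays. The summed monocyte markers were at 15098.8 to 22463.4 in monocytes, 5116.4 to 9328.5 in macrophages and 6696.7 to 9979.9 in cDC1s. Epithelial markers were present in every group, with 9 or 10 of 10 detected on each array, and the summed neutrophil markers were 3841.8 to 10149.6 in monocytes, although Ly6G+ cells had been gated out. Genes of the sorting markers are no finding between the groups. The only probe for Mbd2 itself was not detected on any of the 25 arrays, WT ones included. It cannot show whether WT cells held Mbd2 RNA, and the genotypes therefore rest on the labels alone. RNA was measured in bulk, so fewer cells of a type and less RNA per cell cannot be told apart. Markers of T cells and mast cells were higher in the cDC1 sorts: the summed T cell markers were 401.5 to 2762.4 there and 225.6 to 553.3 in the phagocytes, and the summed mast cell markers 1734.8 to 2229.5 against 210.2 to 497.7. Among the T cell markers 3 of 5 tested were called higher in cDC1s than in macrophages, with Cd4 lower, and 4 of 4 higher than in monocytes. Among the mast cell markers these counts were 2 of 4 and 3 of 4, with none lower. Only 2 to 4 of 5 mast cell markers were detected on each cDC1 array, so few genes carry that sum. Over all genes 8.75% and 9.18% were called higher. The part of T cells and mast cells in the cDC1 differences below was not tested. Among the 3 Mbd2-/- cDC1 arrays, array 28 stood apart from arrays 27 and 30 in its stromal markers, and calls that change without it are given.

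Between cell types most of the genes differed. A gene was called where 1 of its probes passed an adjusted p under 0.05 in limma and a log2 fold change of at least 1 in size, and levels are log2 normalized intensities of the brightest probe. In macrophages 4 of the 10 genes were higher than in monocytes (Mmp13, Mmp12, Mmp9 and Timp2) and 2 were lower (Timp1 and Mmp8), with both genotypes averaged. Over all genes tested in that comparison 5.22% were called, 2.68% higher and 2.55% lower. In cDC1s 6 of the 8 genes tested were lower than in macrophages, none was higher, and the background was 17.9% called, 9.2% lower and 8.75% higher. Against monocytes 6 of 10 were lower in cDC1s and none was higher, where 18.6% of all genes were called, 9.46% lower and 9.18% higher. Mmp8 entered both comparisons with monocytes through its detection on monocyte arrays, and Mmp19 entered that of cDC1s the same way. Such a gene can hardly come out higher in the other cell type, so Mmp8 adds little to these counts of lower genes. The median log2 difference over the tested genes was -2.80 for cDC1s against macrophages and -1.34 against monocytes, beside medians of -0.04 and -0.03 over all genes. Both cDC1 comparisons share the same 5 arrays. Without array 28 the count of called genes was 7 in each, with Adamdec1 added against macrophages and Timp2 against monocytes. Scaling to a common median in place of quantile normalization changed the split over all genes, to 590 higher and 2127 lower from 1161 and 1220 in cDC1s against macrophages, and to 658 and 2084 from 1184 and 1220 against monocytes.

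**Figure D1:**
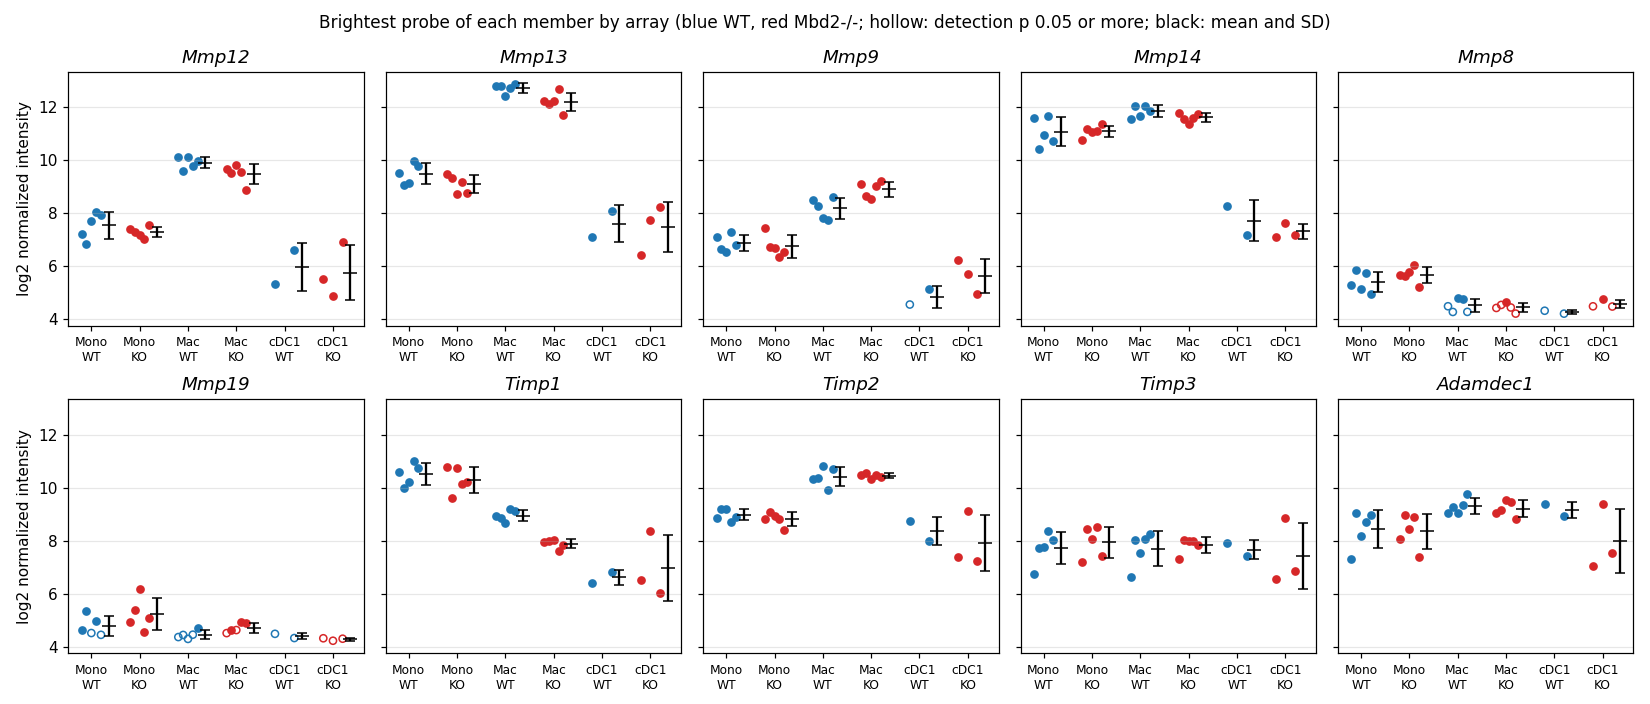
Log2 normalized intensity (y axis) of the brightest probe of each gene on 25 arrays, by cell type and genotype (x axis, Mono, monocytes, Mac, macrophages); points are arrays, hollow where the detection p was 0.05 or more, and black marks give the mean and SD. Mmp12, Mmp13, Mmp9 and Timp2 are highest in macrophages, Timp1 and Mmp8 are highest in monocytes, and Timp3 spans similar levels in all 3 cell types.

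Mmp13 had the widest gap between cell types among the 10 genes. Its levels were 12.79, 12.79, 12.42, 12.74 and 12.88 on the WT macrophage arrays, and 12.25, 12.14, 12.23, 12.68 and 11.72 on the Mbd2-/- ones. In monocytes they were 9.54, 9.06, 9.15, 9.98 and 9.78 for WT and 9.49, 9.34, 8.75, 9.17 and 8.75 for Mbd2-/-. In cDC1s they were 7.11 and 8.10 for WT and 6.44, 7.75 and 8.25 for Mbd2-/-. No macrophage array overlapped a monocyte array, and no monocyte array overlapped a cDC1 array. Macrophages exceeded monocytes by 3.16 (SE 0.19, 8.96-fold, limma adjusted p = 4.12e-11), and cDC1s fell by 4.92 against macrophages (SE 0.24, 30.3-fold lower, adjusted p = 1.78e-13). The other 2 probes of Mmp13 were dimmer and were called in the same direction in both comparisons. The second was detected on 10 of 10 macrophage, 3 of 10 monocyte and 1 of 5 cDC1 arrays. It entered both comparisons through its detection in macrophages and could hardly come out otherwise, so it adds little. The dimmest was detected on 10 of 10, 7 of 10 and 3 of 5. Against monocytes, cDC1s fell by 1.76 (adjusted p = 2.15e-06) by the brightest probe, while the dimmest one gave -0.05 (adjusted p = 0.732), and the remaining one was not tested.

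Mmp12, the macrophage elastase, followed the same order. WT macrophages had 10.11, 9.61, 10.12, 9.78 and 9.98, and Mbd2-/- macrophages had 9.68, 9.54, 9.81, 9.56 and 8.87. WT monocytes had 7.21, 6.86, 7.72, 8.05 and 7.94, and Mbd2-/- monocytes had 7.41, 7.29, 7.20, 7.05 and 7.55. The cDC1 arrays had 5.33 and 6.63 for WT and 5.50, 4.88 and 6.92 for Mbd2-/-, and the highest of these lay just above the lowest monocyte array. The log2 difference of macrophages over monocytes was 2.28 (SE 0.22, 4.85-fold, adjusted p = 3.06e-08), that of cDC1s over macrophages was -3.83 (adjusted p = 8.29e-11) and that of cDC1s over monocytes was -1.56 (adjusted p = 4.44e-05). All 3 gaps passed the test, and those with macrophages had no overlap. Without background correction the gap between cDC1s and monocytes was -0.86 (adjusted p = 0.000118), under the minimum fold. Over the 25 arrays Mmp12 and Mmp13 had a Pearson r of 0.97, and 0.55 after each group's mean was removed, where the arrays share their normalization.

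Mmp9, a gelatinase stored in neutrophil granules and also made by macrophages, was the third protease that was highest in macrophages. Its levels were 7.75 to 9.22 on the 10 macrophage arrays, 6.34 to 7.45 on the 10 monocyte arrays and 4.56 to 6.24 on the 5 cDC1 arrays, on 1 of which it was not detected. The 3 ranges did not overlap. Macrophages exceeded monocytes by 1.73 (SE 0.17, 3.32-fold, adjusted p = 5.41e-08), and cDC1s fell by 3.31 against macrophages and fell by 1.58 against monocytes (adjusted p = 1.87e-11 and 1.8e-06). Without background correction the difference from monocytes was -0.74 (adjusted p = 7.51e-05), under the minimum fold. Of the neutrophil markers, 3 of 8 tested were called lower in macrophages than in monocytes and none higher, beside 2.55% of all genes called lower.

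Timp2, an inhibitor that also takes part in the activation of the Mmp2 precursor by Mmp14, was at 9.90 to 10.80 in macrophages, 8.41 to 9.20 in monocytes and 7.22 to 9.11 in cDC1s. Macrophages exceeded monocytes by 1.54 (SE 0.18, 2.91-fold, adjusted p = 6.54e-07) with no overlap. Against macrophages cDC1s fell by 2.30 (adjusted p = 1.72e-08), again with no overlap. Against monocytes the value for cDC1s was -0.76 (SE 0.23, adjusted p = 0.00704), which passed the adjusted p and not the minimum fold, and their ranges overlapped. Without Mbd2-/- cDC1 array 28 it was called, at -1.06 (adjusted p = 4.65e-06), as under median scaling (-1.30, adjusted p = 9.58e-05), and without WT cDC1 array 26 it was -0.57 (adjusted p = 0.0793). Mmp2 itself, a gelatinase of the wider family, was 1.91 higher in macrophages than in monocytes (adjusted p = 8.94e-06) and fell by 1.89 in cDC1s against macrophages (adjusted p = 7.26e-05).

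Timp1 had the opposite order from Timp2 between the 2 phagocytes. Monocytes had 10.60, 9.99, 10.22, 11.01 and 10.76 for WT and 10.78, 9.59, 10.75, 10.15 and 10.22 for Mbd2-/-. Macrophages lay lower throughout, at 8.93, 8.84, 8.66, 9.19 and 9.12 for WT and 7.95, 7.99, 8.02, 7.60 and 7.82 for Mbd2-/-. The cDC1s had 6.42 and 6.81 for WT and 6.50, 8.38 and 6.04 for Mbd2-/-. The monocyte arrays stood above all others, while array 28 of the Mbd2-/- cDC1s, at 8.38, lay within the macrophage range. Timp1 in macrophages fell by 2.00 against monocytes (SE 0.22, 3.99-fold lower, adjusted p = 2.7e-07), and its second probe gave -2.10 (adjusted p = 5.06e-07). In cDC1s it fell by 3.61 against monocytes (adjusted p = 2.56e-10) and by 1.62 against macrophages (adjusted p = 3.67e-05).

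Mmp8, the neutrophil collagenase, was dim. It was detected on 10 of 10 monocyte arrays, 3 of 10 macrophage arrays and 1 of 5 cDC1 arrays, with levels of 4.96 to 6.05, 4.22 to 4.80 and 4.21 to 4.77. Monocytes did not overlap the other types, and the differences of -1.05 for macrophages (adjusted p = 3.04e-07) and -1.11 for cDC1s (adjusted p = 1.03e-06) are narrowed by the background that dim probes share. The macrophage call ended without background correction (-0.37), with an offset of 50 (-0.52), under a stricter filter, under which Mmp8 was not tested, in WT arrays alone (-0.88), and without WT monocyte array 2 (-0.98) or Mbd2-/- monocyte array 9 (-0.996). The cDC1 call ended without background correction (-0.40), with an offset of 50 (-0.55) and under the stricter filter. Summed neutrophil markers were also highest in monocytes, at 3841.8 to 10149.6, against 1767.9 to 6833.9 in macrophages and 732.1 to 2943 in cDC1s. These sums fell from macrophages to cDC1s, whereas Mmp8 was similar there (log2 difference -0.07, near background and not tested). Of the 11 neutrophil markers 7 to 10 were detected on each monocyte array, and Ngp, which marks immature neutrophils, on 3 of 10. Their part in the Mmp8 difference was not tested. Mmp19 was detected on 8 monocyte, 4 macrophage and 0 cDC1 arrays, at 4.44 to 6.18 in monocytes. It passed the adjusted p with -0.42 in macrophages against monocytes (adjusted p = 0.0292) and was at least 1.31-fold lower in cDC1s (adjusted p = 0.0046), and neither difference reached the minimum fold. The macrophage value missed the adjusted p under median scaling (0.0788), without a filter (0.0755), in Mbd2-/- arrays alone (0.0741) and in 4 leave-outs of an array. By the adjusted p alone 9 of 10 genes passed in macrophages against monocytes, 6 of 8 in cDC1s against macrophages and 8 of 10 in cDC1s against monocytes, beside 44.4%, 58.1% and 58.1% of all genes. Mmp8 and Mmp19 are in both counts against monocytes, and their entry leaned on detection in monocytes. The 9 also include Mmp14 and Adamdec1, which like Mmp19 missed the adjusted p under some settings.

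Mmp14, the membrane bound activator of the Mmp2 precursor, was bright in both phagocytes. It was at 11.37 to 12.07 in macrophages and 10.42 to 11.69 in monocytes, which overlapped, and at 7.11 to 8.27 in cDC1s, which overlapped neither. The macrophage excess over monocytes was 0.65 (SE 0.16, adjusted p = 0.00182), under the minimum fold. It missed the adjusted p under median scaling (0.0558) and in Mbd2-/- arrays alone (0.0761). In cDC1s Mmp14 fell by 4.21 against macrophages (18.6-fold lower, adjusted p = 5.04e-14) and by 3.56 against monocytes (11.8-fold lower, adjusted p = 7.97e-13). A second Mmp14 probe was detected on no array.

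**Figure D2:**
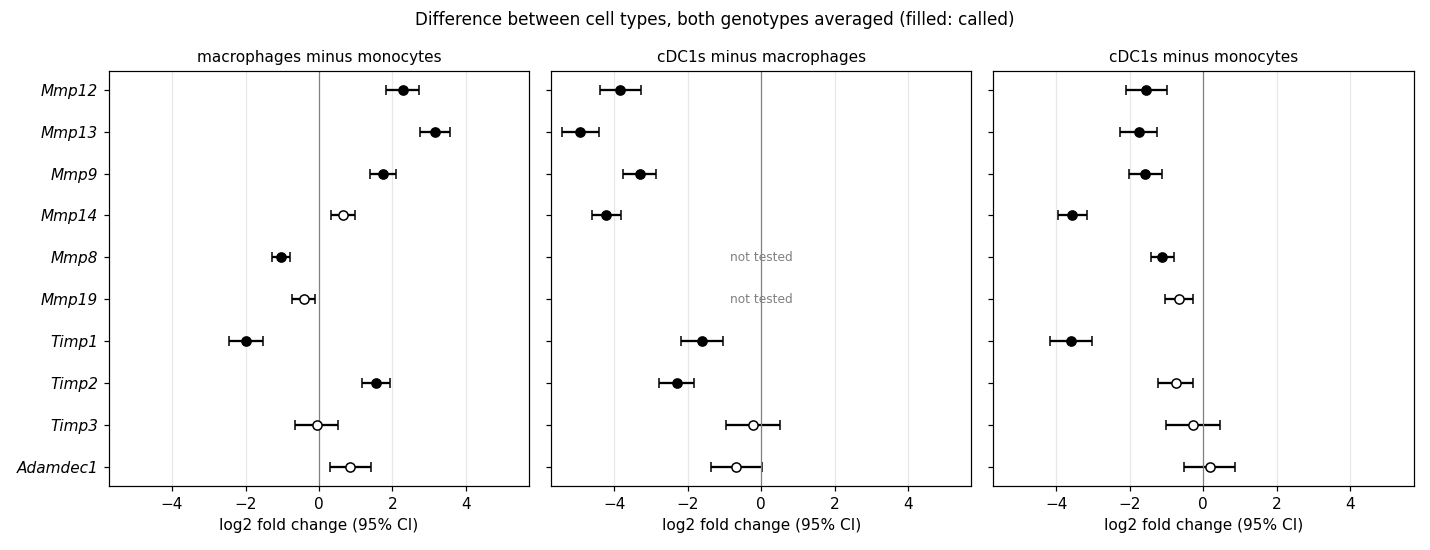
Log2 fold change (x axis, with 95% confidence interval from limma) of the brightest probe of each gene (y axis) in the 3 comparisons of cell types, both genotypes averaged; filled points were called. Values run from -4.92 for Mmp13 in cDC1s against macrophages to 3.16 for the same gene in macrophages against monocytes, and the intervals of Timp3 cover 0 in all 3 comparisons.

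Timp3 and Adamdec1 were not called in any of these comparisons. Timp3, the matrix bound inhibitor, was at 6.73 to 8.53 in monocytes, 6.64 to 8.25 in macrophages and 6.55 to 8.87 in cDC1s, and its differences were -0.06 (95% CI -0.64 to 0.52), -0.22 (-0.95 to 0.50) and -0.28 (-1.01 to 0.44) for macrophages over monocytes, cDC1s over macrophages and cDC1s over monocytes. Its other 2 probes were detected on 4 and 3 of 25 arrays. Adamdec1, known from macrophages and from mesenchymal cells of the gut, was at 8.80 to 9.78 in macrophages, 7.32 to 9.04 in monocytes and 7.05 to 9.38 in cDC1s. The macrophage value exceeded that of monocytes by 0.85 (SE 0.27, adjusted p = 0.015), under the minimum fold and with overlap. That excess missed the adjusted p in WT arrays alone (0.112) and in Mbd2-/- arrays alone (0.1). In cDC1s Adamdec1 had -0.68 against macrophages (adjusted p = 0.0928) and 0.17 against monocytes (adjusted p = 0.694). Against macrophages it was called lower in cDC1s without array 28 (-1.03, adjusted p = 0.00551), under median scaling (-1.22, adjusted p = 0.00519) and in Mbd2-/- arrays alone (-1.22, adjusted p = 0.0271), and against monocytes it turned to -0.18 without array 28 (adjusted p = 0.632).

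Levels of both genes varied from array to array within each group. Of 16115 probes compared by Pearson r, the closest genes to Timp3 were Serpina3n (0.94), Igfbp5 (0.94) and Mmp3 (0.93), and the closest to Adamdec1 were Igfbp4 (0.85), Antxr1 (0.81) and Mmp2 (0.81). Stromal markers were present in all sorts: 8 to 10 of 10 were detected on each array, with Dcn on all 25 and Postn on 1. Their summed level ranged from 1547.8 to 4439.8 in monocytes, 1635.6 to 3903.4 in macrophages and 952.1 to 4826.4 in cDC1s, and 0 of 9 tested markers were called between macrophages and monocytes. The 5 arrays with the lowest Timp3 levels were among the 7 arrays with the lowest stromal sums. The remaining pair with low sums was Mbd2-/- monocyte array 10 (1547.8 with Timp3 at 7.42) and Mbd2-/- macrophage array 20 (1849.5 with 7.84), with higher Timp3. WT monocyte array 1 had 6.73 with a stromal sum of 1820, Mbd2-/- monocyte array 6 had 7.21 with 1905.6, and WT macrophage array 11 had 6.64 with 1635.6. The rest of the 5 were Mbd2-/- cDC1 arrays 27 and 30, with stromal sums of 1406.8 and 952.1, while array 28 of that group had 4727.2. On array 28 Timp3 was at 8.87 against 6.55 and 6.84, Adamdec1 at 9.37 against 7.05 and 7.54, Timp2 at 9.11 against 7.38 and 7.22, and Timp1 at 8.38 against 6.50 and 6.04. Over the 25 arrays Adamdec1 and Timp3 had a Pearson r of 0.66, and 0.85 about the group means. The part of stromal RNA in these levels was not tested.

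**Figure D3:**
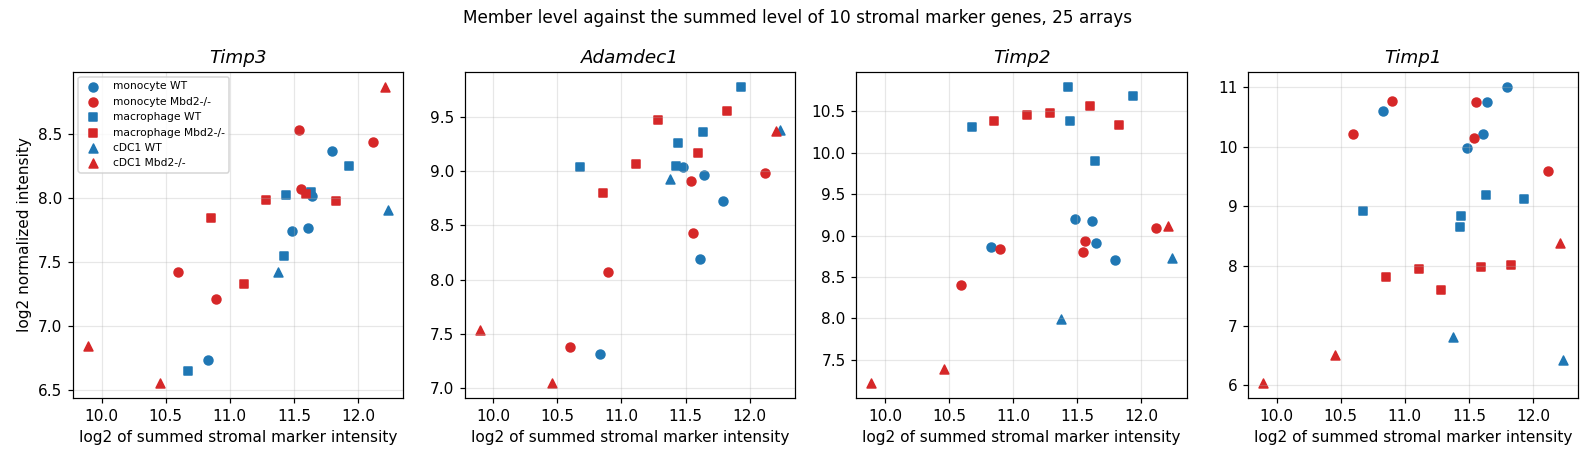
Log2 normalized intensity (y axis) of Timp3, Adamdec1, Timp2 and Timp1 against the log2 of the summed normalized intensity of 10 stromal marker genes (x axis); each point is 1 of 25 arrays, with shape for cell type and colour for genotype. The 5 arrays with the lowest Timp3 lie at low stromal sums, and the Mbd2-/- cDC1 array with a sum of 4727.2 lies above the other 2 of its group in all 4 panels.

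Between genotypes 1 gene was called. In macrophages 1 of 8 tested genes, Timp1, was called (lower in Mbd2-/-), where 1.77% of all genes were called, and 2 of 8, Timp1 and 1 probe of Mmp13, passed the adjusted p alone, where 8.81% of all genes did. In monocytes 0 of 10 genes were called or passed the adjusted p, beside 0.492% called and 2.92% past the adjusted p over all genes. In cDC1s 0 of 8 were called or passed, beside 2.36% and 10.8%. That background depended on the setting: 308 genes were called there, 0 when the cDC1 arrays were compared alone, 515 under median scaling (8 higher and 507 lower, from 125 and 183) and 1031 without WT array 26. In limma the unadjusted p was under 0.05 for Mmp19 in monocytes, for Adamdec1 and Mmp9 in cDC1s and, in macrophages, for Mmp9, Timp1 and the dimmest Mmp13 probe. The median difference over the tested genes was -0.11 in monocytes, -0.16 in macrophages and -0.23 in cDC1s, beside -0.03, -0.08 and 0.05 over all genes.

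Timp1 was lower in Mbd2-/- macrophages by the values given above, with 7.60 to 8.02 against 8.66 to 9.19 in WT, so that no array of one genotype overlapped the other. The mean was 7.87 ± 0.17 against 8.95 ± 0.21 (SD, n = 5 each), and Timp1 fell by 1.07 (SE 0.31, 95% CI -1.72 to -0.42, 2.1-fold lower, limma adjusted p = 0.0424). Its second probe had 8.81, 8.64, 8.47, 8.83 and 8.89 in WT and 7.85, 8.08, 8.11, 7.33 and 7.59 in Mbd2-/-, also without overlap, with a difference of -0.94 and an adjusted p of 0.0957. The call was lost under median scaling (log2 fold change -1.13, adjusted p = 0.0928), and without a filter on dim probes (-1.07, adjusted p = 0.11). Without background correction (-0.88, adjusted p = 0.0324) and with an offset of 50 (-0.97, adjusted p = 0.0401) it passed the adjusted p and missed the minimum fold. When 1 macrophage array was left out it was kept without WT array 13 or Mbd2-/- array 17 and lost in the other 8 cases, with values of -1.14 to -1.01 and adjusted p of 0.0485 to 0.0995. Stromal sums overlapped between the genotypes (1635.6 to 3903.4 in WT and 1849.5 to 3632 in Mbd2-/-). Summed monocyte markers were at 5116.4 to 7706.5 in WT and 6912.2 to 9328.5 in Mbd2-/- macrophages. The part of either cell type in the Timp1 difference was not tested.

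Mmp9 in macrophages had the largest difference in the other direction among the genes. WT arrays had 8.52, 8.27, 7.81, 7.75 and 8.62, and Mbd2-/- arrays had 9.10, 8.67, 8.54, 9.02 and 9.22. The ranges overlapped at a single array of each genotype, and the difference of 0.71 (SE 0.24, 95% CI 0.21 to 1.22, adjusted p = 0.0747) missed the threshold. It passed without background correction (0.59, adjusted p = 0.0253), with an offset of 50 (0.65, adjusted p = 0.043) and without WT array 15 (0.82, adjusted p = 0.043). The summed neutrophil markers were 1767.9 to 3441.2 in WT and 2209.6 to 6833.9 in Mbd2-/- macrophages, and their part in the Mmp9 difference was not tested. Mmp13 gave different answers by probe: the brightest had -0.52 (adjusted p = 0.242), the second 0.52 (adjusted p = 0.387) and the dimmest -0.50 (adjusted p = 0.0333, under the minimum fold). Mmp12 had -0.43 (adjusted p = 0.398), Mmp14 -0.23 (adjusted p = 0.546), Timp2 0.03 (adjusted p = 0.949), Timp3 0.13 (adjusted p = 0.868) and Adamdec1 -0.08 (adjusted p = 0.911). Mmp8 and Mmp19 were too dim in macrophages to be tested.

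**Figure D4:**
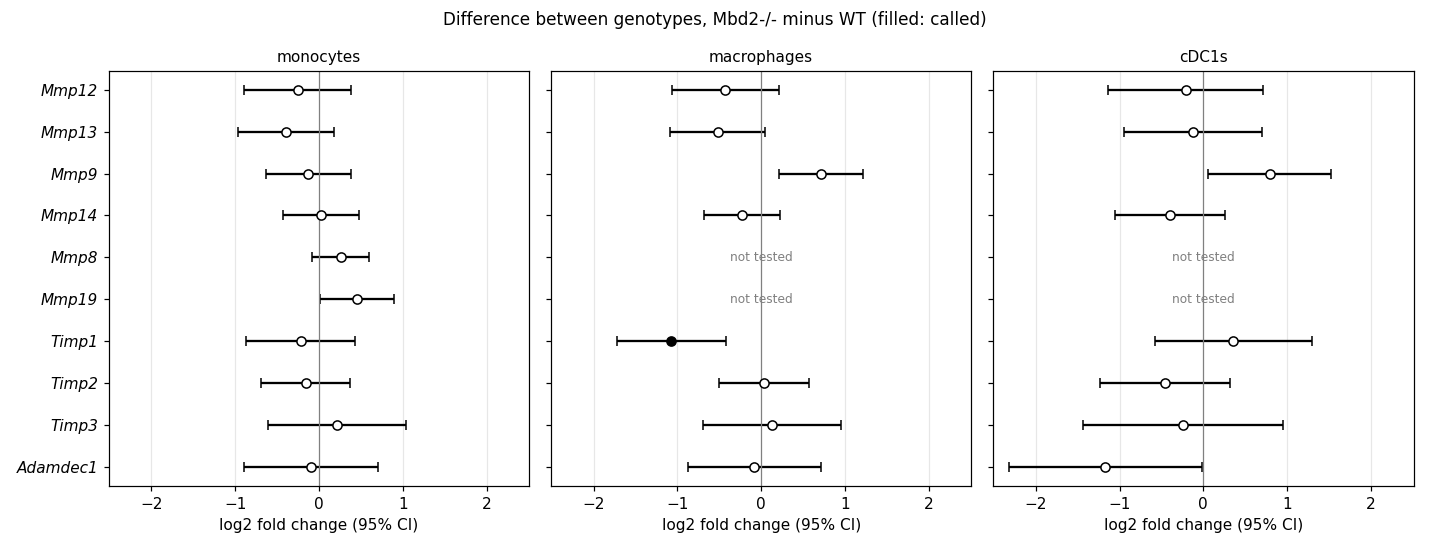
Log2 fold change of Mbd2-/- over WT (x axis, with 95% confidence interval from limma) of the brightest probe of each gene (y axis) in monocytes, macrophages and cDC1s; filled points were called. The single filled point is Timp1 in macrophages at -1.07, and the cDC1 intervals, from 2 WT and 3 Mbd2-/- arrays, are the widest.

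In monocytes the differences ran from -0.40 for Mmp13 (adjusted p = 0.53) to 0.45 for Mmp19 (adjusted p = 0.312), and WT and Mbd2-/- arrays overlapped for each of the 10 genes. Timp1 in monocytes had -0.22 (95% CI -0.87 to 0.43) and Mmp9 had -0.13 (95% CI -0.64 to 0.38). In cDC1s Adamdec1 had the largest difference, -1.17 (95% CI -2.32 to -0.02, adjusted p = 0.185), with 9.38 and 8.93 in WT against 7.05, 9.37 and 7.54 in Mbd2-/-. Without array 28 the value was -1.87 (adjusted p = 0.03), and Timp2 became called too, at -1.06 (adjusted p = 0.0185) from -0.46 with the array. Those 2 calls rest on 2 arrays against 2. The stromal sums were then 4826.4 and 2658.7 in WT against 1406.8 and 952.1 in Mbd2-/-, so stromal markers moved with both genes, and their part was not tested. Mmp9 in cDC1s had 0.79 (95% CI 0.06 to 1.52, adjusted p = 0.159) and Timp1 had 0.36 (95% CI -0.58 to 1.30, adjusted p = 0.667), which turned to -0.35 without array 28 (adjusted p = 0.557) and to -0.27 under median scaling (adjusted p = 0.734).

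With all arrays, the genotype effect was not shown to differ between cell types for any of the genes. As interactions 0 of 10 genes passed the adjusted p for macrophages against monocytes, 0 of 8 for cDC1s against macrophages and 0 of 10 for cDC1s against monocytes, beside 0.0546%, 13.4% and 3.17% of all genes. For Timp1 the effect in macrophages differed from that in monocytes by -0.86 (SE 0.44, adjusted p = 0.626) and that in cDC1s differed from that in macrophages by 1.43 (SE 0.55, adjusted p = 0.0943). For Mmp9 the effect in macrophages exceeded that in monocytes by 0.84 (SE 0.34, adjusted p = 0.546). Without Mbd2-/- cDC1 array 28 or 30, 1 gene passed for cDC1s against macrophages, Timp2 in the first case and Timp1 in the second.

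Each gene's pattern over the 25 arrays had close neighbours, named here by the highest Pearson r as a description. Mmp13 and Mmp12 were both closest to 6720458D17Rik (0.981 and 0.965) and Tgfbr1 (0.969 and 0.959), a receptor of TGF-beta. Timp2 was closest to Cd163 (0.95), a haemoglobin scavenger receptor of macrophages, and Mmp9 to Stab1 (0.95), another scavenger receptor. Mmp14 was closest to Rin2 (0.97) and Fcgr2b (0.97), the inhibitory Fc receptor. Timp1 was closest to Ltb4r1 (0.96), the leukotriene B4 receptor, and Mmp8 to Snai1 (0.92) and Chi3l3 (0.92). The closest gene to the dim Mmp19 was Hcfc2 (0.80).

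Other genes of the same systems were described as lists, whose counts are to be read beside the shares over all genes. In macrophages against monocytes 5.22% of all genes were called. In cDC1s 8.75% were higher and 9.2% lower than in macrophages, and 9.18% higher and 9.46% lower than in monocytes. A count of 1 in a list of this size is near these shares and is no result about the list. Of 19 other metalloproteinases and inhibitors on the array, 11 were tested in macrophages against monocytes, and Mmp2 was called higher and none lower. In cDC1s against macrophages 1 of 12 was called higher, Mmp23 at 1.11 (adjusted p = 0.000186), and Mmp2 lower. Against monocytes 0 of 12 were called. Of the ADAM and ADAMTS proteases, Adam15, Adam9 and Adam17, the last being the enzyme that sheds TNF, were called lower in cDC1s than in macrophages, at -2.61, -2.21 and -1.69, and Adam23 and Adam8 were 1.43 and 2.06 higher there, among 13 tested. Adam8, a protease of leukocytes, fell by 1.38 in macrophages against monocytes (adjusted p = 2.31e-06), the single call among 11.

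The plasminogen system, whose protease plasmin can activate metalloproteinase precursors, had 8 tested genes. Plau, the urokinase that makes plasmin, was 1.42 higher in macrophages than in monocytes (adjusted p = 8.62e-07), the same direction as Mmp9, Mmp12 and Mmp13, and was the single call. In cDC1s against macrophages Plau had -3.06, its receptor Plaur -3.65 and the inhibitor Serpinb2 -1.71, all called lower, and 5 of 8 were called lower against monocytes, with none higher. Among partners and activators, Cd63, a tetraspanin that binds Timp1, was 2.10 higher in macrophages than in monocytes (adjusted p = 2.37e-13), while Cd44, a docking site for Mmp9, and Lcn2, which binds Mmp9, fell by 1.01 and 1.56, among 9 tested. In cDC1s 5 of 8 of these were called lower than in macrophages and 3 of 9 lower than in monocytes, with none higher. Over all genes 9.2% and 9.46% were called lower in these 2 comparisons, and 5.22% were called between macrophages and monocytes.

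Of the AP-1, NF-kB and cytokine genes, Fosb, a part of AP-1, was the single call in macrophages against monocytes, at 1.04 (adjusted p = 2.4e-08), among 12 tested. In cDC1s 6 of 13 were called lower than in macrophages, among them Osm and Tnf, cytokines that induce metalloproteinases, which fell by 3.94 and 3.25 (adjusted p = 3.04e-13 and 8.85e-10). Against monocytes 5 of 12 were called lower and none higher. Over all genes 9.2% and 9.46% were called lower in these cDC1 comparisons, and 5.22% were called between macrophages and monocytes. Between genotypes Spp1, which encodes osteopontin, a matrix protein cut by metalloproteinases, was the single call of this list in each cell type. It fell in Mbd2-/- by 1.18 in monocytes, 1.22 in macrophages and 1.01 in cDC1s (adjusted p = 0.00113, 0.000787 and 0.0217). The cDC1 value was just past the minimum fold. When the cDC1 arrays were compared alone, no gene was called between genotypes, so the Spp1 call in cDC1s depended on the joint fit. The cell types share one normalization and one fit and may share mice. No gene of the other metalloproteinase, ADAM, plasminogen or partner lists was called between genotypes. Over all genes 0.492%, 1.77% and 2.36% were called in monocytes, macrophages and cDC1s, and 2.92%, 8.81% and 10.8% passed the adjusted p. By the adjusted p alone Adam15 and Anxa2, a surface anchor of plasminogen, passed in macrophages with -0.48 each (adjusted p = 0.0323 and 0.000976), and Lrp1, a receptor that clears metalloproteinases, passed in cDC1s with 0.87 (adjusted p = 0.0253). Of the AP-1, NF-kB and cytokine list, with Spp1 included, 2 of 12 passed in monocytes, 1 of 13 in macrophages and 3 of 13 in cDC1s, all lower in Mbd2-/-.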

How the data were processed

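RNA of sorted colon cells was hybridised to Illumina MouseWG-6 BeadChips. The authors deposited a table of raw probe intensity, with a detection p-value, a bead standard error and a bead number for each array, neither background corrected nor normalized. The submitters' processing notes name lumi and limma, and no version is given in the sources used here. In addition 3 signal columns that matched no sample were left out, and the 2 splenic T cell arrays were not used.

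Intensities of the 25 colon arrays were background corrected with limma's nec on detection p-values (offset 16), quantile normalized and taken to log2. The offset understates fold changes of dim probes. All 6 groups were fitted in a single limma model (R 4.3.3, limma 3.58.1, with tables read by data.table). A probe entered a comparison if the number of its arrays with a detection p under 0.05 reached the size of the smaller group, the tests being two-sided with Benjamini-Hochberg adjustment over all probes tested, and cell types were compared with genotypes weighted equally. Calls required an adjusted p under 0.05 and a log2 fold change of at least 1 in size. A gene was given by its brightest tested probe. In the other lists the text could name at most 5 called genes in each direction, those with the largest changes, and the 3 genes of highest Pearson r were recorded as like patterns. The fit was tested on simulated data. The members and lists were chosen with earlier results of these data known. Each probe value averaged 14 to 61 beads with a median standard error of 3.38%, and the number of arrays limits the precision. Alternatives changed the background correction, normalization, filter, threshold, arrays and weights.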

Additional observations from a re-analysis of the deposited data

Results flagged for a closer look

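In Mbd2-/- macrophages, Timp3 on array 16 was at 7.32 on the log2 scale, apart from the other 4 arrays of the group at 7.84 to 8.03. The gap to the nearest array was 0.728 of the group's range, above Dixon's critical value of 0.71 for 5 arrays. Among 52 sets of arrays checked this was the single one, and chance alone passes this limit in about 1 of 20 sets.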

How the results depend on the processing

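The members' log2 fold changes were recomputed 1333 times under alternatives, of which 1263 kept their direction and side of the adjusted p, 28 lost it, 8 gained it and 34 turned direction, none of the last past the threshold. Of 230 counts of called members 213 stayed within 1.5 times. In macrophages the count between genotypes of 1 fell to 0 when the arrays were scaled to a common median, when the background was left uncorrected or the offset set to 50, when dim probes were kept, or at an adjusted p under 0.01, and was 0 to 1 over leave-outs of an array. Under cyclic loess the brightest Timp1 probe had an adjusted p of 0.05, and over all settings it ran from 0.0106 to 0.11. In cDC1s the count between genotypes was 0 to 2 over leave-outs, with 2 without Mbd2-/- array 28. For cDC1s over monocytes 3 members were called, in place of 6, with no background correction, where Mmp8, Mmp9 and Mmp12 passed the adjusted p and missed the minimum fold. The interaction of cDC1s against macrophages had 0 to 1 over leave-outs.

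Median scaling moved the median of all probes to -0.26 between genotypes in monocytes, -0.367 between genotypes in cDC1s, and -0.282 and -0.279 in cDC1s over macrophages and over monocytes. Under it Mmp14 and Timp3 in monocytes turned to -0.26 and -0.11, Timp2 in macrophages to -0.073, Timp1 in cDC1s to -0.27 and Adamdec1 in cDC1s over monocytes to -0.39. With Mbd2-/- arrays alone the last was -0.37. The cause of these changes was not tested. Over leave-outs the genotype values that turned direction ranged as follows. In monocytes Mmp14 had -0.14 to 0.17, Timp3 -0.037 to 0.39 and Adamdec1 -0.38 to 0.15. In macrophages Timp2 had -0.10 to 0.13, Timp3 -0.14 to 0.27 and Adamdec1 -0.17 to 0.036. In cDC1s Timp1 had -0.35 to 0.82, Mmp14 -0.95 to 0.15, Timp3 -0.97 to 0.19, Mmp12 -0.86 to 0.44 and Mmp13 -0.62 to 0.40. Between cell types Timp3 in macrophages over monocytes had -0.18 to 0.072 and Adamdec1 in cDC1s over monocytes had -0.18 to 0.40.

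Modelling the background on the 936 negative control probes was chosen after seeing the data and gave the same members called. The BeadChip as a block was not run, since no source names the chips. Between genotypes, no paired analysis was run because the labels do not match WT arrays to Mbd2-/- arrays by experiment or litter. Monocyte and macrophage arrays of one genotype have numbers that differ by 10, and a random block over these 10 pairs had a correlation of 0.19 and changed no count of members called. With 2 WT cDC1 arrays, differences in cDC1s are the least certain, and probes near background, such as those of Mmp8 and Mmp19, give narrowed differences.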
